A study of Homo sapiens with 18 samples.

Results

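The BCL2 family is described here through 10 of its genes, chosen by symbol and mapped to their Entrez identifiers, out of 18475 genes in the table. They are the antiapoptotic genes BCL2, BCL2L1 and MCL1, the effectors BAX and BAK1, and the BH3-only genes BBC3, PMAIP1, BID, BCL2L11 and BIK, and all 10 were found.

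Proteins of this family meet at the outer mitochondrial membrane, where antiapoptotic members bind and restrain BAX and BAK1. When the effectors are freed or activated they oligomerise, the membrane becomes permeable, and released cytochrome c starts the caspase cascade. BH3-only proteins carry stress signals to this step, and several family genes, among them BAX, BBC3 and PMAIP1, are known targets of p53, the transcription factor that DNA breaks stabilise.

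Poly(A) RNA was sequenced from 3 human lung cell lines, each as 3 unirradiated control libraries and 3 libraries taken 24 h after 10 Gy of X-rays, so that the normal and the cancer cells' responses to radiation could be compared. BEAS-2B is a bronchial epithelial line immortalised with SV40 genes, A549 comes from a lung adenocarcinoma and so from non-small cell cancer, and H446 comes from a small cell lung cancer. The labels give the genotype of all 18 samples as wild type and give no collection time for the controls. They do not say whether replicates are separate cultures, so the p-values measure only the spread between these samples.

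Levels are in FPKM, fragments per kilobase of transcript in a fixed number of mapped reads, which divides by transcript length and so lets genes be compared with each other. The smallest steps between low values put the depth at about 12900000 to 15300000 reads per library. That weak estimate gives BIK, the member with the lowest mean in every group but irradiated A549, about 4 to 21 reads. In bulk RNA, fewer cells expressing a gene and less RNA per cell cannot be told apart. Differences are on the log2 scale of FPKM plus 1, and a gene is called when its p-value from limma, adjusted over all genes tested, is under 0.05.

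Markers of the labelled cell types gave a mixed picture. The epithelial keratins KRT7, KRT8 and KRT18 were abundant in all 3 lines, with KRT8 at a mean of 522 FPKM in BEAS-2B, 1368 FPKM in H446 and 533 FPKM in A549 controls. The 7 epithelial markers together reached 1310.1, 1381.0 and 1305.5 FPKM in the BEAS-2B controls, and 3882.0, 3867.7 and 3998.1 FPKM in the H446 controls. H446 thus had the highest sum, although its label is small cell cancer. The other epithelial markers were low or differed between lines, with control means in BEAS-2B, H446 and A549 of 9.80, 2.29 and 26.2 FPKM for KRT19, 2.37, 1.11 and 0.487 FPKM for EPCAM, and 0.46, 0.587 and 7.05 FPKM for CDH1, while KRT5 did not exceed 0.03 FPKM in any library. Neuroendocrine markers, the usual sign of that cancer, were nearly absent from it, since the 5 markers in the table, of 7 listed (NEUROD1 and INSM1 were not in it), summed to 0.78, 0.52 and 0.49 FPKM in H446 controls and the most abundant, DLL3, had a mean of 0.323 FPKM. The same sum was higher in BEAS-2B controls, at 7.09, 7.56 and 6.65 FPKM (mostly NCAM1), and in A549 controls, at 7.99, 7.24 and 6.64 FPKM (mostly DLL3). In A549, the 4 alveolar and adenocarcinoma markers summed to 1.07, 0.79 and 0.84 FPKM in controls, with NAPSA the most abundant at a mean of 0.693 FPKM. The data therefore show neither the readable neuroendocrine markers above 1 FPKM in H446 nor the alveolar markers in A549, and the lines are called by their names only. The 5 markers of other cells (PTPRC, CD68, COL1A1, COL3A1 and PECAM1) summed to 17.39, 19.65 and 17.42 FPKM in BEAS-2B controls, 18.56, 16.46 and 18.38 FPKM in H446 controls and 35.77, 38.66 and 34.8 FPKM in A549 controls. Most of that was CD68, from 7.67 to 33.47 FPKM over the 18 libraries, and COL1A1, from 4.08 to 10.09 FPKM. PECAM1 had a mean of 3.81 FPKM in H446 controls and 0.00667 FPKM in those of each other line, and PTPRC did not exceed 0.09 FPKM in any library. The source of these transcripts was not tested.

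CDKN1A and MDM2, known p53 targets, were both higher in all 3 irradiated A549 libraries than in any control of the line. In BEAS-2B this held for CDKN1A in all 3 irradiated libraries and for MDM2 in 2 of the 3. CDKN1A, whose product halts the cell cycle, stood at 79.9, 86.4 and 86.1 FPKM in BEAS-2B controls and at 309.7, 102 and 488 FPKM in replicates 1, 2 and 3 after 10 Gy. In A549 it was 101, 106 and 103 FPKM in controls and 318, 294 and 297 FPKM after 10 Gy, while in H446 it was 75.7, 72.8 and 71.7 FPKM and then 72.4, 63.6 and 65.9 FPKM. BEAS-2B 10 Gy replicate 2 therefore lay close to its controls, and the A549 groups were far apart. The same library held MDM2, which encodes the ubiquitin ligase of p53, at 16.2 FPKM beside 47.5 and 87.8 FPKM in the other irradiated replicates and 18.9, 17.5 and 18.2 FPKM in the controls. MDM2 was 28.4, 25.8 and 25.6 FPKM in A549 controls and 89.6, 102 and 86.9 FPKM after 10 Gy, and 11.6, 12.1 and 11.2 FPKM and then 11.8, 10.4 and 9.94 FPKM in H446.

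Across 13 reference targets of p53 (no family member among them), BEAS-2B 10 Gy replicate 2 was the lowest of the 3 irradiated libraries in 13, and it did not exceed the highest control in 7. Of the 10 family members it was the lowest in 5 and did not exceed the highest control in 6. It also had the strongest dependence of expression on base composition among the 18 libraries, a Spearman correlation across genes (which are not independent replicates) of 0.72 between GC content and deviation from the mean of its line. BEAS-2B control replicate 1 was next in size, at −0.64. Over all genes tested, replicate 2 lay little further from its own group (mean root mean square log2 difference 0.24) than 10 Gy replicate 3 (0.23). What sets BEAS-2B 10 Gy replicate 2 apart was not tested, and the BEAS-2B responses of members are also given without it. With all 6 libraries and no replicate block, limma called 0 of the 13 reference targets in BEAS-2B. It likewise called 0 of all 11734 genes (1446 at an unadjusted p under 0.05). Without 10 Gy replicate 2 it called 12 of 13. With all 6 libraries and the spread estimated from all 18 it called 10 of 13, among 822 genes. That spread pools BEAS-2B, with a median residual SD of 0.11, with the cancer lines, at 0.07 each. It can thus understate the spread of BEAS-2B, here and wherever it is used below for that line. With replicate numbers as a block limma called 10 of 13, among 439 genes, although equal numbers were not shown to pair. BEAS-2B 10 Gy replicate 2 was singled out by its low values of these same genes, so tests without it partly follow from that choice and are no independent evidence of a BEAS-2B response. CDKN1A differed by 1.56 in BEAS-2B (limma, adjusted p = 0.25, or 0.00861 with the spread of all 18 libraries) and by 2.2 without that replicate (adjusted p = 3.63e-05, from 3.63e-05 to 0.904 over 16 alternatives), and it rose by 1.54 in A549 (adjusted p = 8.33e-11). MDM2 differed by 1.13 in BEAS-2B (adjusted p = 0.338, or 0.0422 with the spread of all 18 libraries) and by 1.77 without that replicate (adjusted p = 0.000667, from 0.000667 to 0.926), and it rose by 1.76 in A549 (adjusted p = 8.02e-10). In H446 CDKN1A differed by −0.13 (adjusted p = 0.0642), a direction that flips to 0.01 once each library's GC trend is removed. MDM2 was not called in H446 with all 6 libraries (−0.11, limma, adjusted p = 0.2, from 0.029 to 0.829 over 16 alternatives). Without H446 10 Gy replicate 1, CDKN1A was called lower at −0.18 (adjusted p = 0.00631), and so was MDM2 at −0.17 (adjusted p = 0.029).

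**Figure D1:**
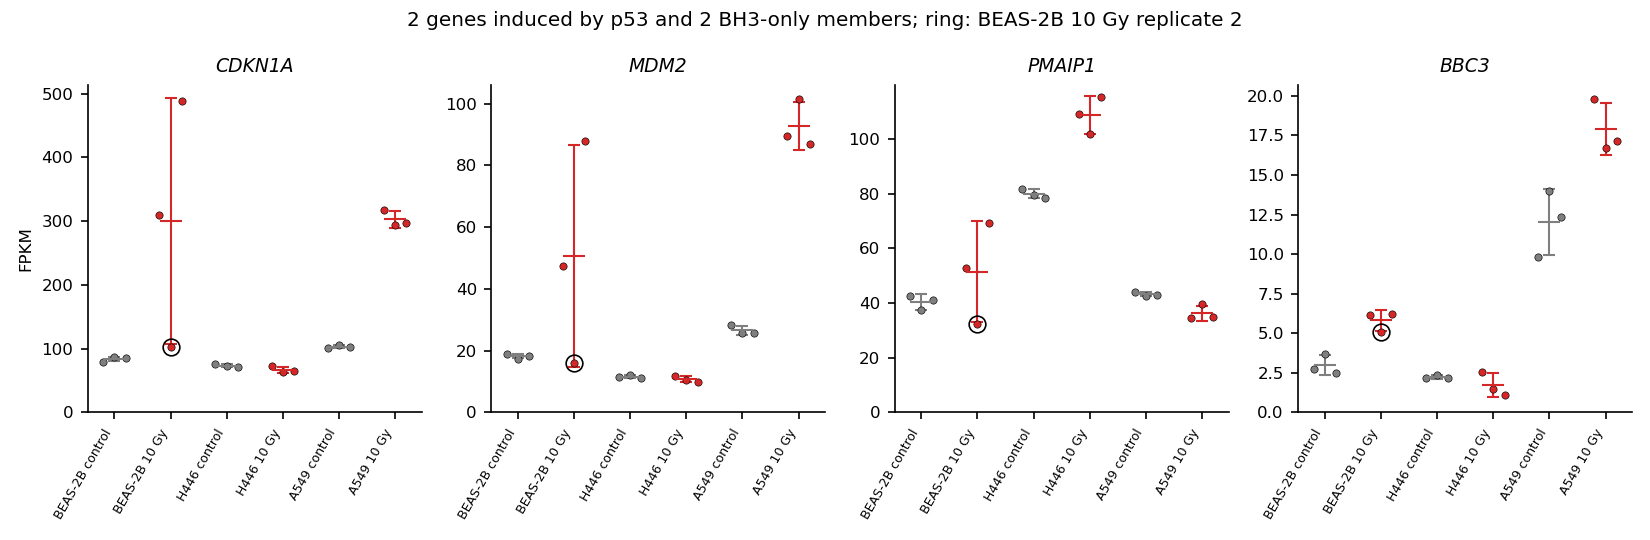
FPKM of CDKN1A, MDM2, PMAIP1 and BBC3 (vertical axes) in the 6 groups (horizontal axes), where dots are libraries, bars are mean ± SD of 3 and a ring marks BEAS-2B 10 Gy replicate 2. The ringed library lies near the BEAS-2B controls for CDKN1A (102 FPKM beside 309.7 and 488) and MDM2 (16.2 FPKM beside 47.5 and 87.8).

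At 24 h after 10 Gy, A549 had more BAX, BBC3, BID and BCL2L11 RNA and less BCL2L1, MCL1 and PMAIP1 RNA than its controls. H446 had more MCL1 and PMAIP1 RNA and less BAX RNA, the last not called with GC trends removed. In BEAS-2B no member was called with all 6 libraries, their own spread and no block on replicate number. With the spread estimated from all 18 libraries, BCL2L1, BAX, BAK1 and BBC3 were called higher there (4 members, 822 genes). This pooled spread can understate that of BEAS-2B, the line with the largest median residual SD. With replicate numbers as a block, BAK1 and BBC3 were called higher (2 members, 439 genes), although equal numbers were not shown to pair. In A549, 7 of the 9 members tested were called, 4 higher and 3 lower, where 51.7% of all genes tested were called (6202 of 11993). In H446, 3 of 10 were called, 2 higher and 1 lower, against 38.4% of all genes (4407 of 11479), a share near the background and so no result about the members as a set. With GC trends removed, 3 were called higher and 0 lower in H446, as BAK1 became called and BAX did not. The share of all genes was then 31.0% (3523 of 11380), so this count too is near the background. In BEAS-2B limma called 0 of 9 members and 0 of 11734 genes (0%), while at an unadjusted p under 0.05 it gave 3 members and 1446 genes. Without 10 Gy replicate 2, BEAS-2B had 3 of 8 members called (BBC3, BAK1 and PMAIP1, all higher) and 1.99% of genes (233 of 11680, of which 224 higher), while each of the other 5 single omissions gave 0 members. That replicate was singled out by low values of p53 targets and members, so this share is no result about the members. The median over the tested members was 0.15 for BEAS-2B, −0.04 for H446 and −0.06 for A549, beside medians of 0.00, −0.03 and 0.00 over all genes. In BEAS-2B the median over members was 0.25 without 10 Gy replicate 2. Of the called genes in H446, 38.5% were higher, which became 49.8% with quantile normalization and 51.5% with GC trends removed, so the balance of directions in that line depends on scaling.

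The 3 control and 3 irradiated values did not overlap for 4 of 9 tested members in BEAS-2B (16.4% of genes), 4 of 10 in H446 (50.3%) and 7 of 9 in A549 (58.5%). Without 10 Gy replicate 2 the BEAS-2B count was 6 of 9 (27.0% of genes), for 3 values against 2. An exact permutation test of 3 against 3 cannot go below p = 0.10, two-sided, so these counts carry no significance of their own.

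Before irradiation, A549 had the most BCL2L1, MCL1 and BBC3 RNA of the 3 lines, H446 had the most BCL2, PMAIP1 and BCL2L11 RNA and the least BAX and BCL2L1 RNA, and BEAS-2B had the most BAK1 and BID RNA. The lines differed in most members, as they did in most genes. H446 against BEAS-2B had 9 of 9 members called (4 higher, 5 lower in H446), with 82.6% of all 12854 genes called. A549 against BEAS-2B had 7 of 9 called (4 higher, 3 lower in A549), with 85.1% of genes called. A549 against H446 had 8 of 9 called (5 higher, 3 lower in A549), with 84.4% of genes called. Shares this near the background are not a result about the family, and what follows is which member went which way.

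Compared with both other lines, the A549 response was higher for BAX and BCL2L11 and lower for BCL2L1 and MCL1. These statements rest on tests of the difference between log2 responses. For H446 minus BEAS-2B, 3 of 10 members were called, all 3 lower in H446, against 22.7% of 13071 genes. For A549 minus BEAS-2B it was 6 of 10 (2 higher, 4 lower), against 30.6% of genes. For A549 minus H446 it was 7 of 10 (4 higher, 3 lower), against 34.6% of genes. These 3 comparisons share libraries and share 1 estimate of spread, although the median residual SD was 0.11 in BEAS-2B and 0.07 in each cancer line. Of the genes called for H446 minus BEAS-2B, 39.5% were higher, which became 55.5% with quantile normalization and 55.1% with GC trends removed. That comparison had 1382 genes (10.7%) and 1 member, BAX, called with GC trends removed, and from 1811 genes (without BEAS-2B control replicate 1) to 4532 genes (without BEAS-2B 10 Gy replicate 3) with 1 library left out. Without BEAS-2B 10 Gy replicate 2, 4 of 10 members were called for H446 minus BEAS-2B, with 18.5% of 13058 genes, and 6 of 10 for A549 minus BEAS-2B, with 30.0% of genes.

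**Figure D2:**
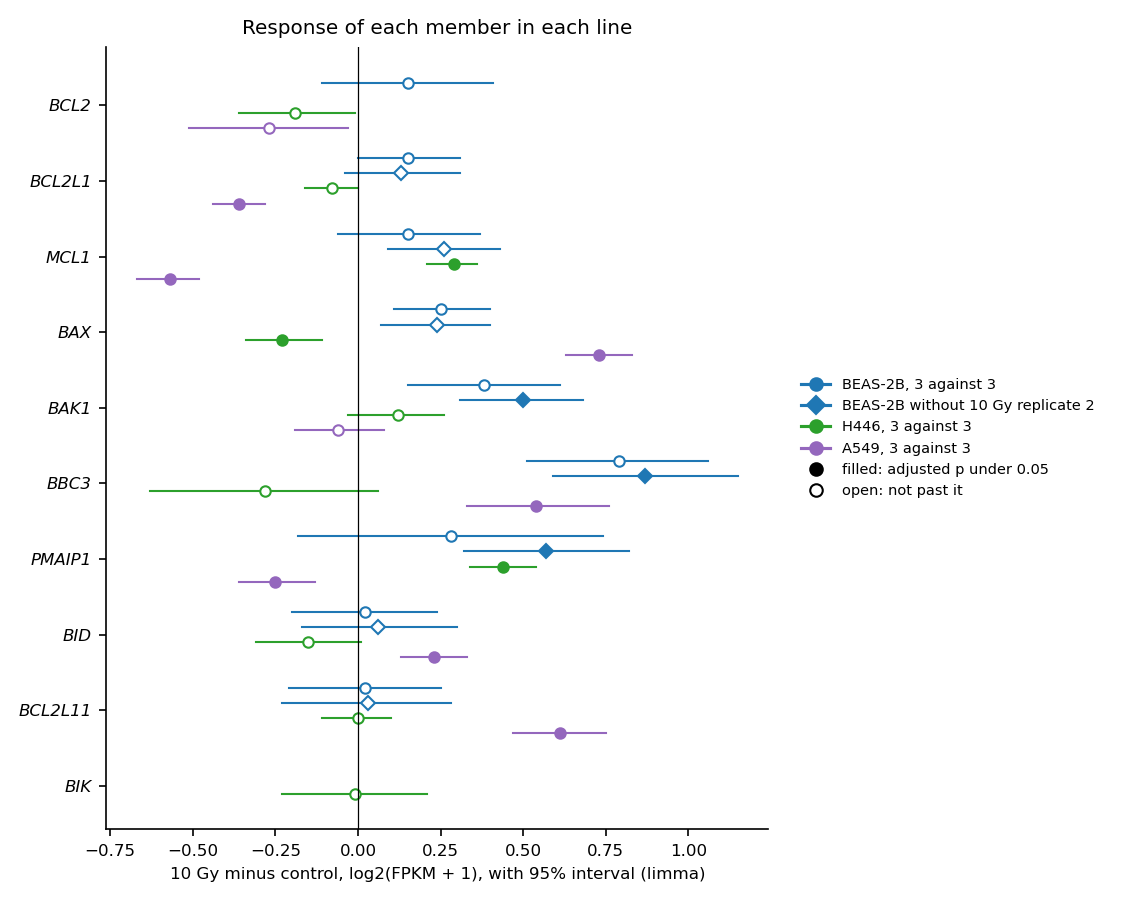
Log2 difference between 10 Gy and control libraries for each member tested (horizontal axis, with 95% interval) for BEAS-2B, for BEAS-2B without 10 Gy replicate 2, for H446 and for A549, with filled symbols for adjusted p under 0.05. BAX rose by 0.73 in A549 and fell in H446 (−0.23, or −0.08 with GC trends removed), and MCL1 fell in A549 (−0.57) and rose by 0.29 in H446.

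The antiapoptotic genes are led by BCL2L1 and MCL1, with BCL2 far below both. BCL2L1 (Entrez 598, chr20:31664452-31723989, minus strand, build GRCh38 as are all gene positions here) encodes BCL-XL, a long-lived inhibitor of BAX. In BEAS-2B it was 94.96, 100.3 and 94.9 FPKM in controls and 109, 111 and 103 FPKM after 10 Gy. In H446 it was 54.4, 56.0 and 55.6 FPKM and then 54.0, 51.2 and 52.2 FPKM. A549 libraries held 160.3, 165 and 161 FPKM and then 130.2, 124 and 125 FPKM. A549 was the highest line and H446 the lowest, and in each line the irradiated libraries lay wholly to one side of the controls, above them in BEAS-2B and below them in both cancer lines. The fall in A549 was from a mean of 162 ± 2.74 to 126 ± 3.42 FPKM (SD, n = 3), a ratio of 0.779, with a log2 difference of −0.36 (95% interval −0.44 to −0.28; limma, adjusted p = 6.81e-06). BCL2L1 was not called in H446 (−0.08, adjusted p = 0.115), where removing GC trends turned the sign to 0.04, nor in BEAS-2B (0.15, adjusted p = 0.412, and 0.13 without 10 Gy replicate 2, adjusted p = 0.585). With the spread estimated from all 18 libraries it was called in BEAS-2B (adjusted p = 0.0366, from 0.0366 to 0.971 over 16 alternatives). With GC trends removed the BEAS-2B difference was 0.06 (95% interval −0.06 to 0.18; limma, adjusted p = 0.755).

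The difference of BCL2L1 responses was −0.51 (SE 0.06) for A549 minus BEAS-2B (limma, adjusted p = 6.12e-06), and −0.49 without BEAS-2B 10 Gy replicate 2 (adjusted p = 1.23e-05). For A549 minus H446 it was −0.28 (SE 0.06, adjusted p = 0.00135). For H446 minus BEAS-2B it was −0.23 (SE 0.06, adjusted p = 0.0111), which was −0.21 without that replicate (adjusted p = 0.0239) and not called with GC trends removed (−0.03, adjusted p = 0.705, with adjusted p from 0.00228 to 0.705 over 28 alternatives). At baseline BCL2L1 was higher in A549 than in BEAS-2B by 0.74 (SE 0.04, limma, adjusted p = 1.93e-09), with all 3 A549 controls above all 3 BEAS-2B controls. It was lower in H446 than in BEAS-2B by a log2 difference of −0.79 (SE 0.04, adjusted p = 1.09e-09).

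MCL1 (Entrez 4170, chr1:150574551-150579738, minus strand) encodes an inhibitor of BAK1 and BAX whose protein turns over within hours. In BEAS-2B it was 95.8, 100.01 and 93.1 FPKM in controls and 115, 92.0 and 117 FPKM after 10 Gy, the low value being replicate 2. In H446 it was 134, 135 and 133 FPKM and then 165, 159 and 167 FPKM. A549 libraries held it at 176, 181 and 182 FPKM and then 120.1, 114 and 127 FPKM. The cancer lines moved in opposite directions with no overlap, and in BEAS-2B the groups overlapped through the 1 low library. In H446 MCL1 rose from 134 ± 1.10 to 164 ± 4.15 FPKM (SD, n = 3), a ratio of 1.22 and a log2 difference of 0.29 (95% interval 0.21 to 0.36; limma, adjusted p = 0.000157). GC trends differed between the H446 groups, so composition and treatment cannot be told apart in the size of this rise. MCL1, with 45.1% GC, stayed called higher there with GC trends removed. In A549 it fell from 179.7 ± 3.29 to 120.5 ± 6.27 FPKM (SD, n = 3), a ratio of 0.670 and a log2 difference of −0.57 (95% interval −0.67 to −0.48; limma, adjusted p = 4.75e-07). The BEAS-2B difference was 0.15 (95% interval −0.06 to 0.37; adjusted p = 0.516), and 0.26 without replicate 2 (95% interval 0.09 to 0.43; adjusted p = 0.161).

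The response of MCL1 differed by −0.86 (SE 0.09) between A549 and H446 (limma, adjusted p = 3.15e-06) and by −0.73 (SE 0.09) between A549 and BEAS-2B (adjusted p = 2.19e-05), the latter being −0.84 without BEAS-2B 10 Gy replicate 2 (adjusted p = 4.38e-08). Between H446 and BEAS-2B the difference was 0.13 and not called (adjusted p = 0.322), nor was it without that replicate (0.02, adjusted p = 0.835). At baseline MCL1 followed the order A549, H446, BEAS-2B with no overlap, being higher in A549 than in H446 by 0.42 (SE 0.04, limma, adjusted p = 7.01e-07) and higher in H446 than in BEAS-2B by 0.47 (SE 0.04, adjusted p = 2.26e-07). The MCL1 to BCL2L1 ratio of FPKM was 1.01, 0.997 and 0.981 in BEAS-2B controls, 2.46, 2.42 and 2.40 in H446 controls, and 1.10, 1.09 and 1.13 in A549 controls. After 10 Gy it was 3.06, 3.11 and 3.21 in H446 and 0.922, 0.924 and 1.02 in A549. MCL1 was thus more than 2 times BCL2L1 in H446 libraries and near it in the other lines, and the H446 ratio was higher in each irradiated library than in any control.

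BCL2 (Entrez 596, chr18:63123346-63320128, minus strand), the founding member of the family, was scarce everywhere. In BEAS-2B it was 1.06, 0.58 and 0.90 FPKM in controls and 0.91, 1.01 and 1.2 FPKM after 10 Gy. In H446 it was 3.81, 3.43 and 3.69 FPKM and then 2.77, 3.01 and 3.47 FPKM. In A549 BCL2 was 1.19, 1.49 and 1.95 FPKM and then 1.0, 1.26 and 1.04 FPKM. Each H446 library exceeded every library of the other lines, and within each line the irradiated and control values overlapped. No response was called by limma, with −0.27 in A549 (adjusted p = 0.0601), −0.19 in H446 (adjusted p = 0.0832) and 0.15 in BEAS-2B (adjusted p = 0.601). Without BEAS-2B 10 Gy replicate 2 it did not pass the filter on low values in that line. BCL2 was called without A549 control replicate 1 (−0.37, adjusted p = 0.0164, from 0.0164 to 0.254 over 16 alternatives) and without H446 10 Gy replicate 3 (−0.26, adjusted p = 0.0357, from 0.0357 to 0.35). In A549 it was also called with quantile normalization (−0.34, adjusted p = 0.0259) and with the spread estimated from all 18 libraries (adjusted p = 0.0479).

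The difference of BCL2 responses for A549 minus BEAS-2B passed the test at −0.42 (SE 0.15, limma, adjusted p = 0.0438) and passed in 13 of 28 alternatives, with adjusted p from 0.0154 to 0.127. Among the libraries whose omission ended this call, BEAS-2B control replicate 2 gave 0.11 for the adjusted p, BEAS-2B 10 Gy replicate 2 gave 0.0562, A549 control replicate 3 gave 0.127 and A549 10 Gy replicate 1 gave 0.0919. The call also ended without BEAS-2B control replicate 3 (adjusted p = 0.0539), BEAS-2B 10 Gy replicate 3 (0.0838), A549 control replicate 2 (0.0665), A549 10 Gy replicate 3 (0.0854), any 1 H446 control (0.0505 to 0.0528) or H446 10 Gy replicate 2 (0.0521), and with no filter on low values (0.0752). It ended as well with libraries weighted by the spread of their line, chosen after seeing the data (0.086), and at a threshold of 0.01. At baseline BCL2 was higher in H446 than in BEAS-2B by 1.34 (SE 0.11, limma, adjusted p = 1.65e-07) and higher in A549 than in BEAS-2B by 0.46 (SE 0.11, adjusted p = 0.00208).

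The effector BAX (Entrez 581, chr19:48954815-48961798, plus strand) forms pores in the outer membrane and is a direct p53 target. The BAX promoter is shown because BAX was called in opposite directions in the cancer lines, although the H446 call ended with GC trends removed. RefSeq promoters, 250 bases before to 50 after a start site in build GRCh38.p14, were matched for 8 of the 10 members, with none for MCL1 or BIK. Capitals mark matches, on either strand, to the E-box CACGTG, the CRE half-site TGACGT or the GC box GGGCGG, and positions count from the start site as 0. The BAX window, chr19:48954625-48954924 on the plus strand, held 4 E-boxes, beginning at −138, −93, −45 and −14, and 2 GC boxes, at −52 and 9, with no overlap between motifs.
BAX: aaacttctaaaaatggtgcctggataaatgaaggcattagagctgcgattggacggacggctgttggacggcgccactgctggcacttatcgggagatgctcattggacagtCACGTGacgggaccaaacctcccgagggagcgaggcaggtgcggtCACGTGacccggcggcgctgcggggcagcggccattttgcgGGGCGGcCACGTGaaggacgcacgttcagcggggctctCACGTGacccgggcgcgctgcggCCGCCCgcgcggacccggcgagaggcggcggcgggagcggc
A match to the E-box is found in 7.26% of 35116 promoters of that length and a match to the GC box in 45.0%. A match is a description of letters, not of a factor bound there.

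BAX levels in BEAS-2B were 65.4, 67.1 and 65.7 FPKM in controls and 77.6, 80.5 and 78.5 FPKM after 10 Gy. In H446 they were 25.5, 26.6 and 25.7 FPKM and then 23.3, 20.4 and 22.4 FPKM. In A549 they were 67.2, 69.1 and 62.1 FPKM and then 115, 109.9 and 106 FPKM. Irradiated libraries lay above the controls in BEAS-2B and A549 and below them in H446, with no overlap in any line. The rise in A549 took BAX from 66.1 ± 3.62 to 110.4 ± 4.24 FPKM (SD, n = 3), a ratio of 1.67 and a log2 difference of 0.73 (95% interval 0.63 to 0.83; limma, adjusted p = 1.5e-07). The fall in H446 took it from 25.9 ± 0.596 to 22.0 ± 1.5 FPKM (SD, n = 3), with a log2 difference of −0.23 (95% interval −0.34 to −0.11; adjusted p = 0.00626). That call ended with GC trends removed (−0.08, adjusted p = 0.176, from 0.0033 to 0.176 over 16 alternatives). GC trends differed between the H446 groups, at 0.47, 0.40 and 0.35 in controls and −0.10, −0.48 and −0.51 after 10 Gy (Spearman correlations across genes with GC content), and BAX has 58.9% GC, so composition and treatment cannot be told apart there. In BEAS-2B the difference of 0.25 (95% interval 0.11 to 0.40) was not called (adjusted p = 0.25, and 0.24 with adjusted p = 0.194 without 10 Gy replicate 2), and it was called with the spread estimated from all 18 libraries (adjusted p = 0.00962, from 0.00962 to 0.904 over 16 alternatives). With GC trends removed the BEAS-2B difference was 0.14 (95% interval 0.01 to 0.28; limma, adjusted p = 0.488).

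Lines differed in the BAX response in all 3 tests. A549 exceeded H446 by 0.96 (SE 0.07, limma, adjusted p = 3.81e-08) and BEAS-2B by 0.48 (SE 0.07, adjusted p = 9.74e-05; 0.49 without BEAS-2B 10 Gy replicate 2, adjusted p = 0.000123). H446 minus BEAS-2B was −0.48 (SE 0.07, adjusted p = 0.000414), which was −0.46 without that replicate (adjusted p = 0.000507) and −0.24 with GC trends removed (adjusted p = 0.0228). At baseline BAX did not separate A549 from BEAS-2B, with a difference of 0.00 (95% interval −0.10 to 0.10; limma, adjusted p = 1), although quantile normalization gave 0.16 (adjusted p = 0.00602) and GC trends removed gave 0.14 (adjusted p = 0.00677). It was lower in H446 than in BEAS-2B by a log2 difference of −1.32 (SE 0.05, adjusted p = 2.95e-11), and its controls in H446 were all below those of the other lines.

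BAK1 (Entrez 578, chr6:33572547-33580293, minus strand), the effector that resides in the mitochondrial membrane, has near-identical pseudogenes, so its short-read values are less certain than the others. In BEAS-2B it was 17.0, 17.97 and 18.3 FPKM in controls and 24.4, 19.9 and 26.7 FPKM after 10 Gy. It ranged from 11.6 to 14.7 FPKM over the 6 H446 libraries and from 11.2 to 13.3 FPKM over the 6 A549 libraries. Irradiated BEAS-2B libraries were all above their controls, with replicate 2 the lowest of them, while the groups overlapped in both cancer lines. The BEAS-2B difference was 0.38 (95% interval 0.15 to 0.61; limma, adjusted p = 0.25), and without 10 Gy replicate 2 BAK1 was called higher by 0.50 (95% interval 0.31 to 0.68; adjusted p = 0.0116, from 0.0116 to 0.904 over 16 alternatives). It was called in BEAS-2B with the spread of all 18 libraries as well (adjusted p = 0.014). In H446 the difference was 0.12 (adjusted p = 0.184), which was called with GC trends removed (0.26, adjusted p = 0.00557, from 0.00557 to 0.48), and in A549 it was −0.06 (adjusted p = 0.474).

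A549 minus BEAS-2B differed in the BAK1 response by −0.44 (SE 0.12, limma, adjusted p = 0.0118), which was −0.55 without BEAS-2B 10 Gy replicate 2 (adjusted p = 0.000636) and no longer called with GC trends removed (−0.33, adjusted p = 0.0648, from 0.000636 to 0.0648 over 28 alternatives). H446 minus BEAS-2B was −0.27 (adjusted p = 0.124), and was called at −0.38 without BEAS-2B 10 Gy replicate 2 (adjusted p = 0.0157, from 0.0157 to 0.906). At baseline BAK1 was lower than in BEAS-2B by a log2 difference of −0.50 in H446 (SE 0.06, adjusted p = 2.62e-06) and −0.45 in A549 (SE 0.06, adjusted p = 6.16e-06). The cancer lines were not separated (0.05, adjusted p = 0.45), except with GC trends removed (0.12, adjusted p = 0.0303, from 0.0303 to 0.997 over 19 alternatives).

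Among BH3-only genes, BBC3 (Entrez 27113, chr19:47220822-47232766, minus strand) encodes PUMA, a p53 target that binds every antiapoptotic member. Its RefSeq window, chr19:47232618-47232917 on the minus strand, is shown because BBC3 had the largest ratio of the 10 members in BEAS-2B, and it held 1 E-box, in capitals, beginning at −232.
BBC3: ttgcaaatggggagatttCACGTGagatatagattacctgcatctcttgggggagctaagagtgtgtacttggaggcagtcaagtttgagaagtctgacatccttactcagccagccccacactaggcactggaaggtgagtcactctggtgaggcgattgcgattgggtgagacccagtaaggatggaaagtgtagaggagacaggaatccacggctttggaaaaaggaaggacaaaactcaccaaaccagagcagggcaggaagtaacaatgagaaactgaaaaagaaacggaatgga
In BEAS-2B its level was 2.73, 3.69 and 2.50 FPKM in controls and 6.16, 5.07 and 6.25 FPKM after 10 Gy. In H446 it was 2.15, 2.38 and 2.17 FPKM and then 2.58, 1.47 and 1.12 FPKM. A549 controls were at 9.81, 14.0 and 12.3 FPKM and irradiated A549 libraries at 19.8, 16.7 and 17.2 FPKM. All irradiated libraries of BEAS-2B and A549 exceeded their controls, and the H446 groups overlapped through 10 Gy replicate 1.

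The BBC3 rise in A549 was from 12.04 ± 2.10 to 17.9 ± 1.65 FPKM (SD, n = 3), a ratio of 1.49 and a log2 difference of 0.54 (95% interval 0.33 to 0.76; limma, adjusted p = 0.000731). In BEAS-2B the means were 2.97 ± 0.631 and 5.83 ± 0.657 FPKM (SD, n = 3), a ratio of 1.96 and a log2 difference of 0.79 (95% interval 0.51 to 1.06; adjusted p = 0.241). Without BEAS-2B 10 Gy replicate 2 it was called higher by 0.87 (95% interval 0.59 to 1.15; adjusted p = 0.00526, from 0.000218 to 0.904 over 16 alternatives), and with the spread of all 18 libraries adjusted p was 0.00789. In H446 the difference was −0.28 (adjusted p = 0.176), but BBC3 was called lower without 10 Gy replicate 1 (−0.50, adjusted p = 0.00386, from 0.00386 to 0.981) and sat at 0.01 with GC trends removed. BBC3 has the highest GC content of the members, 69.7%.

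H446 minus BEAS-2B differed in the BBC3 response by −1.07 (SE 0.22, limma, adjusted p = 0.00302), or −1.15 without BEAS-2B 10 Gy replicate 2 (adjusted p = 0.00232), and narrowly missed the threshold with GC trends removed (−0.65, adjusted p = 0.0503, from 0.000422 to 0.0503 over 28 alternatives). A549 minus H446 was 0.83 (SE 0.22, adjusted p = 0.00735), and A549 minus BEAS-2B was −0.24 (95% interval −0.71 to 0.22; adjusted p = 0.435; −0.33 without that replicate, adjusted p = 0.307). At baseline BBC3 was higher in A549 than in BEAS-2B by 1.71 (SE 0.12, limma, adjusted p = 2.84e-08), with every A549 control above every other control. H446 minus BEAS-2B was −0.29 (SE 0.12, adjusted p = 0.0455) and was called in 8 of 19 alternatives, with adjusted p from 0.0117 to 0.2. That call ended without BEAS-2B control replicate 1 (adjusted p = 0.0525) or 2 (0.2), with no filter on low values (0.0913), without H446 control replicate 1 (0.1), 2 (0.054) or 3 (0.0964), without A549 control replicate 3 (0.0531), with quantile normalization (0.144) and with equal totals (0.14). It also ended with libraries weighted by the spread of their line, an alternative chosen after seeing the data (0.0584), and at a threshold of 0.01.

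PMAIP1 (Entrez 5366, chr18:59899948-59904306, plus strand) encodes NOXA, which binds MCL1 and promotes its degradation. Its window, chr18:59899746-59900045 on the plus strand, is shown because PMAIP1 moved in opposite directions in the cancer lines. It held 1 CRE half-site, at −56, and 4 GC boxes, at −146, −106, −94 and −82, with no overlap, and 7.98% of all promoters of that length hold a CRE half-site.
PMAIP1: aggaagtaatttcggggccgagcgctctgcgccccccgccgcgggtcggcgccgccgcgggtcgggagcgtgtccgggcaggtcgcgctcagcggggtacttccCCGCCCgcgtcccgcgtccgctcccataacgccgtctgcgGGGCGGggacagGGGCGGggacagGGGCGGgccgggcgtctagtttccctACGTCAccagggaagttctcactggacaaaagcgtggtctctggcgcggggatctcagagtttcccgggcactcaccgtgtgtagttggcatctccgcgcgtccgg
In BEAS-2B PMAIP1 was 42.7, 37.3 and 41.3 FPKM in controls and 52.8, 32.4 and 69.3 FPKM in replicates 1, 2 and 3 after 10 Gy. In H446 it was 81.8, 79.5 and 78.6 FPKM and then 109, 102 and 116 FPKM. In A549 PMAIP1 was 44.0, 42.8 and 42.8 FPKM and then 34.7, 39.5 and 34.8 FPKM. H446 libraries lay above all others and were higher after irradiation, A549 libraries were lower after irradiation, and the BEAS-2B groups overlapped because replicate 2 lay below every control.

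In H446 PMAIP1 rose from 80.0 ± 1.66 to 109 ± 6.92 FPKM (SD, n = 3), a ratio of 1.36 and a log2 difference of 0.44 (95% interval 0.34 to 0.54; limma, adjusted p = 7.41e-05). GC trends differed between the H446 groups, so composition and treatment cannot be told apart in the size of this rise. PMAIP1, which has the lowest GC content of the members (37.2%), stayed called higher there with GC trends removed. In A549 it fell from 43.2 ± 0.725 to 36.4 ± 2.72 FPKM (SD, n = 3), with a log2 difference of −0.25 (95% interval −0.36 to −0.13; adjusted p = 0.00157), and this call ended when the spread came from all 18 libraries (adjusted p = 0.221, from 0.000179 to 0.221 over 16 alternatives). In BEAS-2B the difference was 0.28 (95% interval −0.18 to 0.74; adjusted p = 0.58), and without replicate 2 PMAIP1 was called higher by 0.57 (95% interval 0.32 to 0.82; adjusted p = 0.0297, from 0.0297 to 0.971). With 1 library left out, the BEAS-2B difference ran from 0.03 to 0.57.

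A549 minus H446 differed in the PMAIP1 response by −0.68 (SE 0.23, limma, adjusted p = 0.0253, from 0.000131 to 0.0579 over 28 alternatives). The lowest adjusted p came without BEAS-2B 10 Gy replicate 2 (SE 0.11), a library that enters this comparison only through the shared spread. The call ended without H446 10 Gy replicate 3 (adjusted p = 0.0579), A549 10 Gy replicate 1 (0.0542) or A549 10 Gy replicate 3 (0.0527), and with no filter on low values (0.0539). A549 minus BEAS-2B was −0.52 (SE 0.23, adjusted p = 0.0877), but omitting BEAS-2B 10 Gy replicate 2 gave −0.82 (adjusted p = 6.64e-05, from 6.64e-05 to 0.207), and it was called with GC trends removed (−0.63, adjusted p = 0.0153). Over all single omissions this difference ran from −0.82 to −0.28. H446 minus BEAS-2B was 0.16 (adjusted p = 0.64), and its sign flips without that replicate (−0.13) and with GC trends removed (−0.02). At baseline PMAIP1 was higher in H446 than in BEAS-2B by 0.97 (SE 0.05, limma, adjusted p = 1.45e-09) and than in A549 (A549 minus H446 −0.87, SE 0.05, adjusted p = 3.42e-09). A549 minus BEAS-2B was 0.09 (adjusted p = 0.0983, from 0.00211 to 0.329 over 19 alternatives), called with quantile normalization (0.22, adjusted p = 0.00211), with equal totals (0.15, adjusted p = 0.0141) and without BEAS-2B control replicate 1 (0.13, adjusted p = 0.0335).

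BCL2L11 (Entrez 10018, chr2:111119378-111168447, plus strand) encodes BIM, which can activate BAX and BAK1 directly. In BEAS-2B it was 5.58, 6.57 and 5.13 FPKM in controls and 6.44, 5.77 and 5.33 FPKM after 10 Gy. In H446 it was 12.5, 12.6 and 11.97 FPKM and then 12.6, 12.5 and 11.8 FPKM. A549 values were 3.95, 4.33 and 3.83 FPKM and then 6.65, 6.84 and 6.56 FPKM. The A549 groups were well apart, those of the other lines overlapped, and H446 had the highest values throughout. BCL2L11 rose in A549 from 4.04 ± 0.261 to 6.68 ± 0.143 FPKM (SD, n = 3), a ratio of 1.66 and a log2 difference of 0.61 (95% interval 0.47 to 0.75; limma, adjusted p = 9.99e-06). Differences of 0.02 in BEAS-2B (adjusted p = 0.947; 0.03 without 10 Gy replicate 2, adjusted p = 0.958) and 0.00 in H446 (adjusted p = 0.948) were not called. The A549 response exceeded that of BEAS-2B by 0.59 (SE 0.11, limma, adjusted p = 0.00045; 0.58 without BEAS-2B 10 Gy replicate 2, adjusted p = 0.000886) and that of H446 by 0.61 (SE 0.11, adjusted p = 0.000243). At baseline BCL2L11 was higher in H446 than in BEAS-2B by 0.99 (SE 0.08, adjusted p = 8.26e-08) and lower in A549 than in BEAS-2B by a log2 difference of −0.42 (SE 0.08, adjusted p = 0.000234).

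BID (Entrez 637, chr22:17734138-17774770, minus strand) encodes the protein that caspase-8 cleaves to link death receptors with mitochondria. In A549 it was 21.3, 20.8 and 21.1 FPKM in controls and 26.1, 24.2 and 24.3 FPKM after 10 Gy. It ranged from 29.7 to 37.4 FPKM over the 6 BEAS-2B libraries and from 9.59 to 12.4 FPKM over the 6 H446 libraries. The A549 groups did not overlap and those of BEAS-2B and H446 did. BID rose in A549 by 0.23 (95% interval 0.13 to 0.33; limma, adjusted p = 0.00114), a ratio of means of 1.18. It was not called in BEAS-2B (0.02, adjusted p = 0.952; 0.06 without 10 Gy replicate 2, adjusted p = 0.889) or H446 (−0.15, adjusted p = 0.126), but was called in H446 without 10 Gy replicate 1 (−0.21, adjusted p = 0.0437, from 0.0437 to 0.369 over 16 alternatives). A549 minus H446 was 0.38 (SE 0.12, adjusted p = 0.0169), which missed the threshold without H446 10 Gy replicate 3 (0.32, adjusted p = 0.0524, from 0.00297 to 0.0524 over 28 alternatives). A549 minus BEAS-2B was 0.21 (adjusted p = 0.187) and was called without BEAS-2B 10 Gy replicate 3 (0.31, adjusted p = 0.0257, from 0.0257 to 0.38), while without 10 Gy replicate 2 it was 0.17 (adjusted p = 0.323). At baseline BID was lower than in BEAS-2B by a log2 difference of −1.38 in H446 (SE 0.07, limma, adjusted p = 7.34e-10) and −0.59 in A549 (SE 0.07, adjusted p = 3.14e-06).

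BIK (Entrez 638, chr22:43110748-43129712, plus strand), a BH3-only protein of the endoplasmic reticulum, was at the limit of what this depth measures. In A549 it was 0.66, 0.32 and 0.57 FPKM in controls and 1.76, 1.12 and 0.76 FPKM after 10 Gy, all irradiated values lying above the controls. Over the other 12 libraries it ranged from 0.36 to 1.33 FPKM, with groups that overlapped. It passed the filter on low values for the test within a line in H446 alone (−0.01, limma, adjusted p = 0.95). With no filter, the 1 alternative of 16 that tested it in A549, it was called higher there by 0.53 (95% interval 0.14 to 0.91; adjusted p = 0.0425), and it was not called in BEAS-2B (0.18, adjusted p = 0.758). At baseline BIK was also tested only with no filter, 1 of 19 alternatives, where it was higher in H446 than in BEAS-2B by 0.40 (adjusted p = 0.0179) and lower in A549 than in H446 (−0.50, adjusted p = 0.00586), and A549 minus BEAS-2B was −0.09 (adjusted p = 0.536). For A549 minus H446 the difference of BIK responses was 0.54 and not called (limma, adjusted p = 0.0914). It was called in 4 of 27 alternatives, with adjusted p from 0.0262 to 0.249. Among these were the omissions of BEAS-2B 10 Gy replicate 2 (adjusted p = 0.0391) and of A549 10 Gy replicate 3 (0.69, adjusted p = 0.0358). Another was libraries weighted by the spread of their line, chosen after seeing the data (adjusted p = 0.0316).

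**Figure D3:**
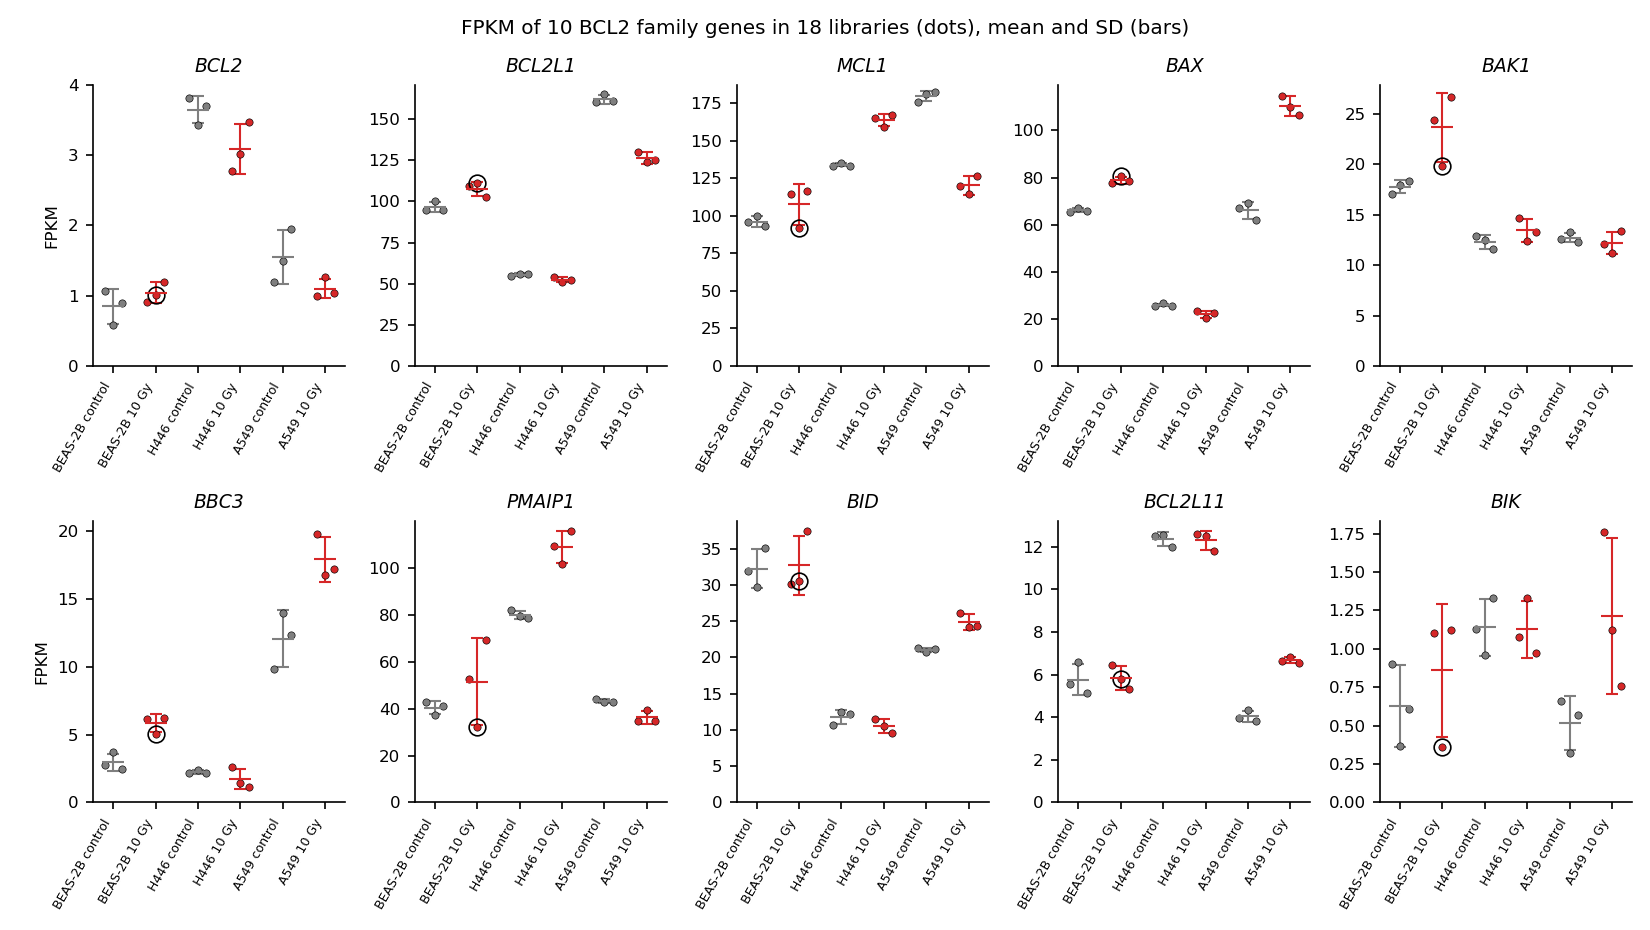
FPKM of each of the 10 members (vertical axes) in the 6 groups (horizontal axes), where dots are libraries, bars are mean ± SD of 3 and a ring marks BEAS-2B 10 Gy replicate 2. MCL1 is highest in A549 controls (179.7 FPKM) and lowest in BEAS-2B controls (96.3 FPKM), PMAIP1 is highest in irradiated H446 (109 FPKM), and BCL2 stays under 4 FPKM in every library.

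Ranked by level, the members of unirradiated BEAS-2B began with BCL2L1 (96.7 ± 3.11 FPKM, SD, n = 3) and MCL1 (96.3 ± 3.51), which did not differ beyond their spread. BAX (66.1 ± 0.872), PMAIP1 (40.5 ± 2.81), BID (32.2 ± 2.68), BAK1 (17.8 ± 0.667), BCL2L11 (5.76 ± 0.737) and BBC3 (2.97 ± 0.631) followed, each apart from the next, and BCL2 (0.847 ± 0.244) and BIK (0.627 ± 0.265) overlapped at the end. In unirradiated H446 the order was MCL1 (134 ± 1.10), PMAIP1 (80.0 ± 1.66), BCL2L1 (55.3 ± 0.843), BAX (25.9 ± 0.596), then BCL2L11 (12.3 ± 0.322), BAK1 (12.3 ± 0.679) and BID (11.8 ± 0.954) with overlapping values, then BCL2 (3.64 ± 0.194), BBC3 (2.23 ± 0.127) and BIK (1.14 ± 0.185). In unirradiated A549 it was MCL1 (179.7 ± 3.29), BCL2L1 (162 ± 2.74), BAX (66.1 ± 3.62), PMAIP1 (43.2 ± 0.725), BID (21.1 ± 0.272), then BAK1 (12.7 ± 0.468) and BBC3 (12.04 ± 2.10) with overlapping values, then BCL2L11 (4.04 ± 0.261), BCL2 (1.54 ± 0.383) and BIK (0.517 ± 0.176).

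After 10 Gy the order in A549 began with BCL2L1 (126 ± 3.42 FPKM, SD, n = 3), MCL1 (120.5 ± 6.27) and BAX (110.4 ± 4.24), where MCL1 overlapped both of its neighbours. PMAIP1 (36.4 ± 2.72), BID (24.9 ± 1.06), BBC3 (17.9 ± 1.65), BAK1 (12.2 ± 1.08) and BCL2L11 (6.68 ± 0.143) followed, and BIK (1.21 ± 0.506) and BCL2 (1.10 ± 0.140) overlapped. In irradiated H446 the order was MCL1 (164 ± 4.15), PMAIP1 (109 ± 6.92), BCL2L1 (52.4 ± 1.39), BAX (22.0 ± 1.5), BAK1 (13.4 ± 1.16) overlapping BCL2L11 (12.3 ± 0.452), then BID (10.5 ± 0.950), BCL2 (3.08 ± 0.356), and BBC3 (1.72 ± 0.762) overlapping BIK (1.13 ± 0.184). In irradiated BEAS-2B, MCL1 (108 ± 13.7) and BCL2L1 (108 ± 4.32) overlapped, BAX (78.8 ± 1.49) followed, PMAIP1 (51.5 ± 18.5) overlapped BID (32.7 ± 4.07) through replicate 2, BAK1 (23.6 ± 3.46) stood apart, BCL2L11 (5.85 ± 0.559) overlapped BBC3 (5.83 ± 0.657), and BCL2 (1.04 ± 0.147) overlapped BIK (0.860 ± 0.433). PMAIP1 thus stood above BCL2L1 in H446, before and after irradiation, and below it in the other lines.

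Summed by role over the 10 members, the antiapoptotic genes were most abundant in every library. Their sum was 337, 348 and 345 FPKM in A549 controls and 251, 239 and 253 FPKM after 10 Gy, while the effector sum was 79.8, 82.3 and 74.4 FPKM and then 127, 121 and 119.7 FPKM. In H446 the antiapoptotic sum was 192, 195 and 193 FPKM and then 222, 213 and 223 FPKM, and the effector sum was 38.4, 39.0 and 37.2 FPKM and then 38.0, 32.7 and 35.6 FPKM. The A549 sums thus approached each other after irradiation and the H446 sums drew apart, which is a description with no test. BH3-only sums were 108, 108 and 106 FPKM in H446 controls and 137, 128 and 139 FPKM after 10 Gy, most of it PMAIP1. In BEAS-2B the antiapoptotic sum was 192, 201 and 189 FPKM and then 225, 204 and 221 FPKM, and the effector sum 82.5, 85.0 and 84.0 FPKM and then 102, 100.3 and 105 FPKM. As a ratio, BAX to BCL2L1 was 0.419, 0.418 and 0.386 in A549 controls and 0.882, 0.888 and 0.851 after 10 Gy, and in H446 it was 0.468, 0.475 and 0.461 and then 0.432, 0.398 and 0.429. BEAS-2B had ratios of 0.689, 0.669 and 0.692 in controls and 0.710, 0.725 and 0.763 after 10 Gy. A549 therefore began with less BAX per BCL2L1 than BEAS-2B and ended with more in each irradiated library. RNA levels do not give the levels of these proteins, many of which are controlled after translation. The order of the roles holds for the 10 members only. BNIP3, a BH3 gene outside them, had a mean of 278 FPKM in BEAS-2B controls, above the antiapoptotic sum of each control. BCL2A1, an antiapoptotic gene outside them, had a mean of 32.9 FPKM in A549 controls.

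**Figure D4:**
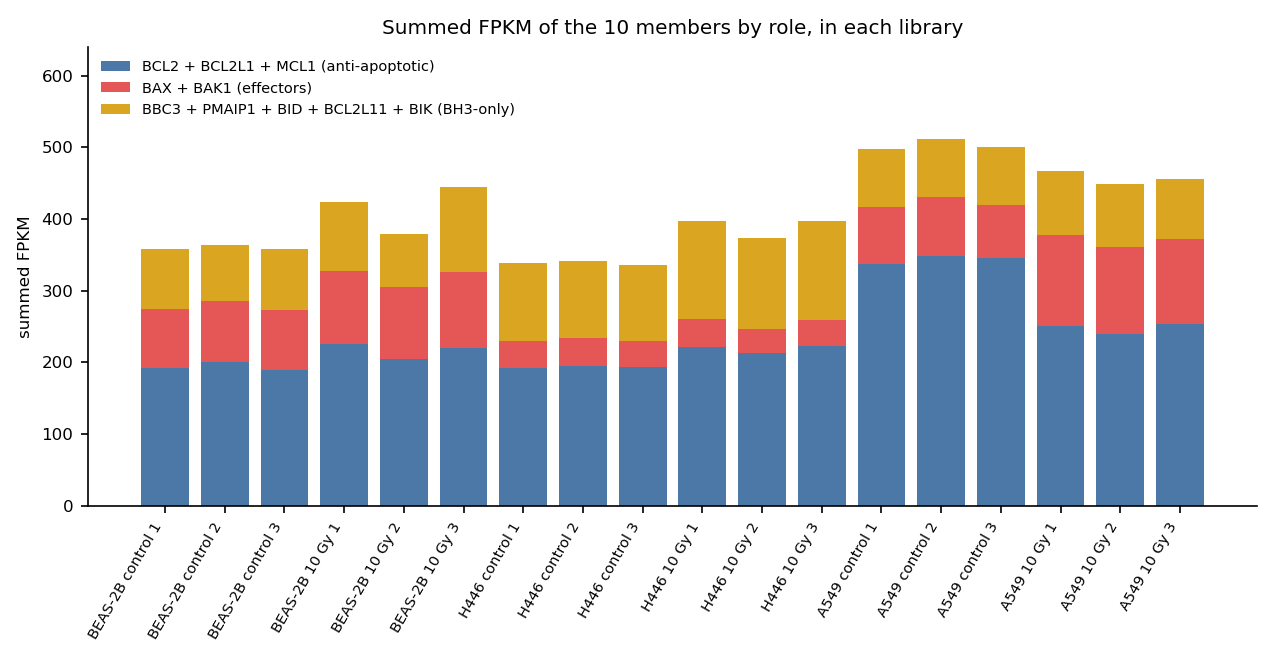
Summed FPKM of the 3 antiapoptotic, 2 effector and 5 BH3-only members, stacked (vertical axis) for each of the 18 libraries (horizontal axis). In A549 the antiapoptotic sum lies between 337 and 348 FPKM in controls and between 239 and 253 FPKM after 10 Gy, and the effector sum between 74.4 and 82.3 FPKM and then between 119.7 and 127 FPKM.

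Genes that work beside the family were described by their counts. With all 6 libraries, their own spread and no replicate block, limma called 0 genes in BEAS-2B in each of the 9 lists, with medians from −0.08 to 0.71. With replicate numbers as a block it called 10 of 13 in the p53 reference list. Without 10 Gy replicate 2 it called 12 of 13 in the p53 reference list and 0 in each of the other 8, with medians from −0.04 to 1.01. With all 6 libraries and the spread of all 18, the same counts were 10 of 13 in the p53 reference list, 1 of 6 among the inhibitors of apoptosis (BIRC5) and 0 in each of the other 7. Of all genes tested, 38.4% were called in H446 and 51.7% in A549, and a list count near those shares is no result about the list. Among the inhibitor of apoptosis proteins (6 of 7 tested), 4 were higher and 1 lower in H446 (median 0.30) and 0 were higher and 3 lower in A549 (median −0.12). BIRC5, which encodes survivin, rose in H446 from a mean of 37.6 to 59.3 FPKM (log2 difference 0.64, limma, adjusted p = 5.84e-07), and BIRC3 rose there by 0.33 (adjusted p = 0.00152). BIRC6 was called there too (0.31, adjusted p = 0.0251), but not with no filter (0.0862) or without H446 control replicate 1 (0.0538), 2 (0.0707) or 3 (0.0543) or 10 Gy replicate 2 (0.0822) or 3 (0.092). BIRC2 fell in A549 from 77.2 to 50.9 FPKM (log2 difference −0.59, adjusted p = 1.25e-07), and XIAP, the caspase inhibitor, fell there by 0.40 on the log2 scale (adjusted p = 0.000122). For A549 minus H446, 1 of the 6 had a higher and 4 a lower response in A549, with 34.6% of all genes called.

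Among the 8 genes of the apoptosome and caspases, 1 was higher and 0 lower in H446 (median 0.03) and 2 were higher and 3 lower in A549 (median −0.06), including CASP9, the initiator caspase, which fell from 10.7 to 7.85 FPKM (log2 difference −0.40, limma, adjusted p = 0.00049). Of 4 other BH3 genes tested, 1 was higher and 2 lower in H446 (median −0.12) and 3 were higher and 1 lower in A549 (median 0.28). BMF, a BH3-only gene, fell in H446 from 4.86 to 3.55 FPKM (log2 difference −0.37, adjusted p = 0.00524). BAD, another, fell from 36.6 to 29.6 FPKM (−0.30, adjusted p = 0.0147), a call that ended with GC trends removed (−0.07, adjusted p = 0.481), with no filter (adjusted p = 0.0623) and without H446 control replicate 1 (adjusted p = 0.0571). Of the other antiapoptotic family genes, 0 of 1 tested were called in H446 (median −0.07) and 2 of 2 were lower in A549 (median −0.30). Of 3 other BCL2-like genes, 1 was higher and 1 lower in H446 (median −0.02) and 1 was lower in A549 (median −0.17).

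Of 4 genes for other proteins released from mitochondria, 1 was lower in H446 (median −0.05) and 1 was higher in A549 (median 0.05). Of 10 mitochondrial partners, 2 were higher and 3 lower in H446 (median 0.05) and 3 were higher in A549 (median 0.01). Of 4 genes that control MCL1 protein turnover, 2 were higher in H446 (median 0.09) and 1 was higher in A549 (median 0.03). The p53 reference list had 12 of 13 higher in A549 (median 1.12) and 2 of 13 lower in H446 (median 0.00), beside a median of 0.71 in BEAS-2B (1.01 without 10 Gy replicate 2). FDXR, a mitochondrial reductase and p53 target, rose in A549 from 44.8 to 155.7 FPKM (log2 difference 1.78, limma, adjusted p = 3.41e-11). GDF15, a stress cytokine, fell in H446 from 53.1 to 34.9 FPKM (−0.59, adjusted p = 6.13e-06), which was not called when the spread came from all 18 libraries (adjusted p = 0.367, from 7.2e-07 to 0.367 over 16 alternatives). It rose in A549 (0.72, adjusted p = 1.4e-06), also not called with that spread (adjusted p = 0.227, from 5.86e-08 to 0.227), and differed by 2.42 in BEAS-2B (adjusted p = 0.25), or 3.41 without 10 Gy replicate 2 (adjusted p = 2.28e-08). Of its differences of responses, H446 minus BEAS-2B was called (−3.01, adjusted p = 0.00509), while A549 minus BEAS-2B (−1.70, adjusted p = 0.0643) and A549 minus H446 (1.31, adjusted p = 0.142) were not. All 3 were called without BEAS-2B 10 Gy replicate 2 (−4.00, −2.69 and 1.31, adjusted p = 7.44e-15, 3.42e-12 and 9.26e-09), and in 28, 3 and 2 of 28 alternatives, where adjusted p reached 0.0206, 0.179 and 0.23. GDF15 is among the p53 targets whose low values singled out that replicate, so tests without that replicate partly follow from the choice.

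Promoter windows of the other matched members differed in their motifs. BAK1 had 2 GC boxes and 1 match to the p53 decamer, found in 6.63% of all promoters, and the decamer shared 1 base with a GC box. BCL2L11 had 3 GC boxes, BCL2 had no match, 1 of 2 BCL2L1 windows had 1 GC box, and of 5 BID windows 2 had an E-box and 4 had GC boxes. The BAX, BBC3 and PMAIP1 windows held no match to the decamer. No match says only that those letters are not in the window.

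**Figure D5:**
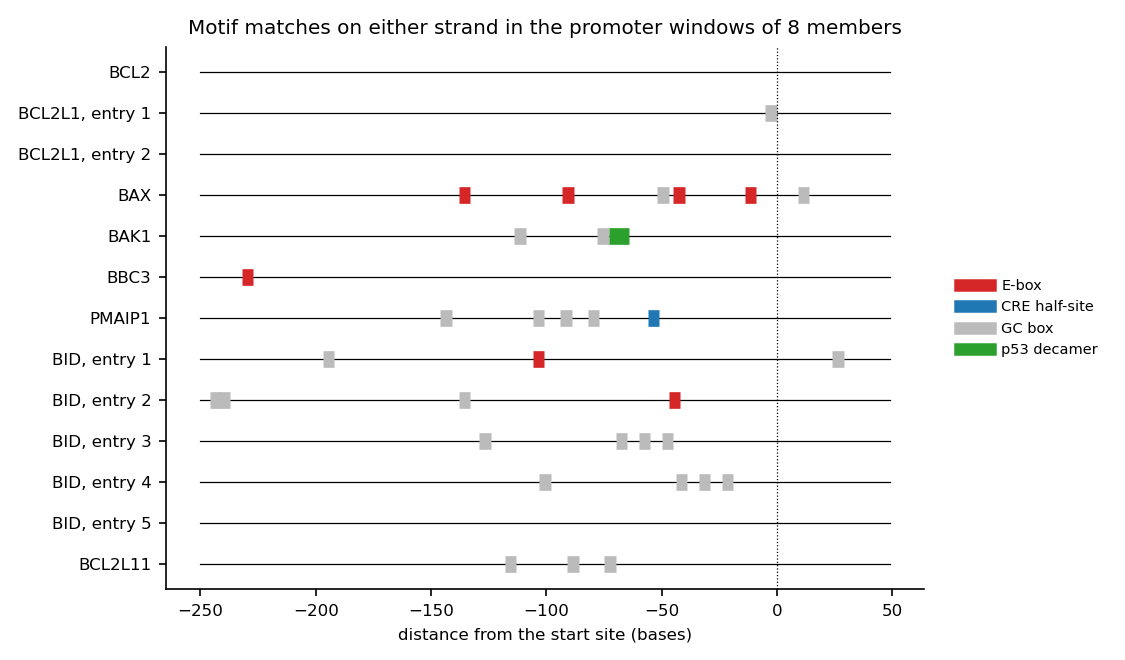
Motif matches (symbols, by motif) in the 13 promoter windows of 8 members (vertical axis) by distance in bases from the start site (horizontal axis). BAX holds 4 E-boxes between −138 and −14, and PMAIP1 holds 4 GC boxes and 1 CRE half-site between −146 and −56.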

How the data were processed

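The deposited table held 18475 genes in 18 columns, which were matched to the samples by their names. Its FPKM values were made by the authors, and that unit was inferred from 2-decimal values with unequal library totals, since the header does not name it. The submitters' notes list HISAT2 2.0.4, Bowtie2 2.2.5, RSEM 1.2.12 and build hg38, with no role or order, for 50-base single-end reads. No counts were used, and depth was estimated from the smallest steps between values.

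Genes with at least 1 FPKM in at least 3 libraries of a comparison were tested with limma 3.58.1 in R 4.3.3 on log2(FPKM + 1), with an intensity trend and Benjamini-Hochberg adjustment over all genes tested. For differences of responses, at least 3 libraries of at least 1 line had to reach that level, so BIK was tested there only because it passed in H446. Each response used the 6 libraries of its line, the baseline used 9 controls, and differences of responses used all 18 libraries with 6 means. Tables used Python 3.11.15, pandas 2.3.3 and numpy 2.4.6, and figures matplotlib 3.10.9. Gene positions came from GENCODE release 29 and promoters from RefSeq. Where GC trends were removed, each library's loess trend on transcript GC content was subtracted from its deviation from the mean of the libraries fitted. Tested on simulated data, differences of responses that involve BEAS-2B gave more false calls than the threshold allows, for a cause that was not tested. Libraries weighted by the spread of their line, an alternative chosen after seeing the data, lowered this in part for BEAS-2B and raised it for A549 minus H446.

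Members and lists were chosen with earlier results of these data known. Besides all members, at most 3 genes higher and 3 lower per response were named from the other lists, those called with the largest absolute log2 difference and a mean of at least 1 FPKM, with CDKN1A and MDM2 as a check of the treatment. The genes most like a member were the 3 with the smallest root mean square difference over the 6 centred group means, for members whose means span more than 1 on the log2 scale. Replicate numbers were tried as a block, and leaving out each library, other scalings, filters, pseudocounts and thresholds were tried as well.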

Additional observations from a re-analysis of the deposited data

Results flagged for a closer look

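The responses of the family to 10 Gy differed between lines, by the test of the difference itself in limma, for 16 pairs of a member and a comparison. For H446 minus BEAS-2B, 3 of 10 members were called, against 22.7% of all genes, a share near the background and no result about the members. The counts were 6 of 10 against 30.6% for A549 minus BEAS-2B and 7 of 10 against 34.6% for A549 minus H446. For H446 minus BEAS-2B the log2 differences past the threshold were −0.23 for BCL2L1, −0.48 for BAX and −1.07 for BBC3. For A549 minus BEAS-2B they were −0.42 for BCL2, −0.51 for BCL2L1, −0.73 for MCL1, 0.48 for BAX, −0.44 for BAK1 and 0.59 for BCL2L11. For A549 minus H446 they were −0.28 for BCL2L1, −0.86 for MCL1, 0.96 for BAX, 0.83 for BBC3, −0.68 for PMAIP1, 0.38 for BID and 0.61 for BCL2L11. The 3 comparisons share libraries, so these values are not independent of each other. Of the 16, 9 involve BEAS-2B, where the test gave more false calls on simulated data than the threshold allows. BCL2 passed in 13 of 28 alternatives. With GC trends removed, the calls ended for BCL2L1 and BBC3 in H446 minus BEAS-2B and for BAK1 in A549 minus BEAS-2B. In A549 minus H446, the PMAIP1 call ended with no filter and without H446 10 Gy replicate 3 or A549 10 Gy replicate 1 or 3, and the BID call ended without H446 10 Gy replicate 3. No cause was tested.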

How the results depend on the processing

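Of the values for members outside leave-one-out, 795 kept their direction and side of the threshold, 18 became called, 18 lost the call and 11 changed sign. With 1 library left out, the same counts were 893, 13, 22 and 20. Of the counts per comparison, 169 of those without omission stayed within 1.5 times and 11 moved, beside 193 and 5 with 1 library left out. For other named genes, 148 values kept their side, 5 became called, 6 lost the call and 1 changed sign, beside 86, 4, 6 and 0 with 1 library left out. That tally covers each gene only in the response that named it, and CDKN1A and MDM2 in every line. It leaves out their other responses, baselines and differences of responses, where signs and calls also changed. CDKN1A, for example, kept its direction for A549 minus BEAS-2B in 22 of 28 alternatives. For counts within the other lists, 240 stayed within 1.5 times and 30 moved, beside 136 and 26 with 1 library left out.

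In BEAS-2B the 0 genes called became 1 with no filter and 822 with the spread from all 18 libraries (4 members), and leave-one-out gave 0 to 233 genes and 0 to 3 members, the highest without 10 Gy replicate 2. At an adjusted p under 0.01, 2529 genes were called in H446, 1208 for H446 minus BEAS-2B, 2308 for A549 minus BEAS-2B and 2824 for A549 minus H446. With GC trends removed, H446 minus BEAS-2B gave 1382 genes and 1 member, and leave-one-out gave 1811 (without BEAS-2B control replicate 1) to 4532 (without BEAS-2B 10 Gy replicate 3). In H446 leave-one-out gave 3 to 5 members, the highest without 10 Gy replicate 1. The share of all genes called ran from 28.1% (without control replicate 2) to 41.2% (without 10 Gy replicate 1), so these counts are no result about the members. Libraries weighted by the spread of their line, chosen after seeing the data, gave 2361, 3343 and 5826 genes for the 3 differences of responses. The causes were not tested, apart from the stricter threshold, which lowers counts by construction.

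With replicate block, 439 genes and 2 members (BAK1, adjusted p = 0.0121, and BBC3, 0.000218) were called in BEAS-2B, as were 10 of 13 p53 reference genes, among them CDKN1A (7.61e-05) and MDM2 (0.00151). CDKN1A was called in H446 too (0.0365). Among differences of responses, PMAIP1 for A549 minus BEAS-2B (−0.52, adjusted p = 0.0342) and BIK for A549 minus H446 (0.54, adjusted p = 0.0262) became called. Equal replicate numbers were not shown to pair. Correlations across genes of the deviations from the group means were −0.19, 0.31 and 0.33 in BEAS-2B for equal numbers. They were 0.10, −0.04 and 0.00 in H446 and −0.09, −0.17 and −0.06 in A549. Some libraries correlated more with another number. With so few libraries a group and genes that are not independent, these correlations do not settle whether libraries were paired.

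All sign changes in these tallies were in values not called. With GC trends removed, the log2 difference was −0.01 for BID in BEAS-2B, 0.04 for BCL2L1, 0.01 for BBC3, 0.10 for BIK and 0.01 for CDKN1A in H446, and −0.02 for PMAIP1 in H446 minus BEAS-2B. Quantile normalization gave 0.03 for BCL2L11 and 0.03 for BIK in H446 and 0.02 for BCL2L11 in H446 minus BEAS-2B. Equal totals gave 0.01 for BCL2L11 and 0.00 for BIK in H446 and 0.00 for BAK1 in unirradiated A549 against H446. Leave-one-out ranges that cross 0 were −0.08 to 0.08 for BID and −0.05 to 0.11 for BCL2L11 in BEAS-2B, −0.02 to 0.02 for BCL2L11 and −0.08 to 0.05 for BIK in H446, −0.12 to 0.00 for BAK1 in A549, and −0.03 to 0.04 for BAX in unirradiated A549 against BEAS-2B. For differences of responses they were −0.13 to 0.40 for PMAIP1 and −0.11 to 0.04 for BCL2L11 in H446 minus BEAS-2B, and −0.18 to 0.03 for BCL2 in A549 minus H446. The causes were not tested.

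Depth limits BIK, with about 4 to 21 reads per library, while 3 libraries a group limit every test. A pseudocount of 0.1 moved log2 differences of low members, for BBC3 to 0.96 in BEAS-2B and −1.39 for H446 minus BEAS-2B, and for BCL2 to −0.73 for A549 minus BEAS-2B, each on the same side of the threshold. Over all alternatives, the BIK difference of responses for A549 minus H446 reached 1.08, from 0.54. At baseline the BCL2 difference from BEAS-2B reached 2.02 in H446, from 1.34, and 0.80 in A549, from 0.46. The alternative meant for counts was not run, since the values are not counts.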

Other observations

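Other family genes were measured beside the 10 members. BCL2A1, an antiapoptotic gene, was listed at 0 in all BEAS-2B controls and all H446 libraries and had a mean of 32.9 FPKM in A549 controls and 26.8 FPKM in irradiated A549. BCL2L2, which encodes BCL-W, had means of 12.6 and 12.4 FPKM in BEAS-2B, 16.7 and 15.8 FPKM in H446, and 11.9 and 9.35 FPKM in A549, control and irradiated. BNIP3, a hypoxia-responsive BH3 gene, had means of 278 and 268 FPKM in BEAS-2B, 21.8 and 26.2 FPKM in H446, and 65.4 and 80.0 FPKM in A549, control and irradiated.

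The genes most like each member over the 6 group means, among 13092 genes, are given with their root mean square log2 difference. For BCL2 they were ABL1 (0.06), EMC1 (0.08) and RPS6KA2 (0.08), and for BCL2L1 AP3S2 (0.07), TTC25 (0.08) and LBH (0.08). For BAX they were ZNF337 (0.11), IL12A (0.12) and ALDH4A1 (0.14), and for BBC3 COL27A1 (0.15), PKDCC (0.21) and BEAN1 (0.23). PMAIP1 was nearest to HIST1H2BC (0.09), NT5E (0.11) and HIST1H2BG (0.12), and BID to UBE2L6 (0.06), GALK1 (0.06) and PCDHB8 (0.07). BCL2L11 was nearest to SSR1 (0.10), A4GALT (0.11) and PGP (0.11). The group means of MCL1, BAK1 and BIK spanned 1 or less on the log2 scale, so none was sought for them.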
